A study of Mus musculus with 45 samples.

Results

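Imprinted genes are expressed mainly from the copy inherited from 1 parent. The 37 imprinted mouse genes described here, 16 known for maternal and 21 for paternal expression, fall into 17 chromosomal clusters and were chosen by their symbols. The choice was made with earlier results of these data known, so counts of members beside all genes are descriptions. Rows with these symbols were taken from both RNA-seq tables of the series, and 35 of the 37 genes had a row in each of them, among 33924 gene symbols. Expression of Kcnq1ot1 and Peg13 was not analysed here, and these genes entered only the searches by position. All 35 genes with a row varied between samples and entered the tests.

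The samples were 24 RNA-seq libraries of D3 mouse embryonic stem cells (ESCs, strain label 129) carrying deletions at the long noncoding RNA (lncRNA) gene 5430416N02Rik. In ΔPG cells a PGK-puro cassette had replaced both promoter and gene body, and in ΔG cells a GFP-IRES-Puro cassette had replaced the gene body alone. Each deletion was present in heterozygous or homozygous form. Each kind of cell was kept as ESCs (ES, DMSO) or treated with retinoic acid (RA, 2 µM for 48 h), which gave 8 groups of 3 samples. Every group thus carried a deletion on at least 1 allele, and wild-type libraries were not analysed here. The study derived several clones per genotype, and the sources used here do not say which clone each library came from, so genotype and clone cannot be told apart. The labels call the samples replicates of a group and do not describe separate derivations, so p-values measure only the spread between these samples.

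Imprinting is set by DNA methylation that differs between egg and sperm and is kept through cell division. Maternal and paternal genes often sit side by side under 1 control region: H19 and Igf2 share enhancers, the lncRNA Airn runs antisense to Igf2r, and the maternal noncoding RNAs Meg3, Rian and Mirg lie downstream of the paternal gene Dlk1. Many paternally expressed genes promote fetal and placental growth, and several maternally expressed ones restrain it. The factor ZFP57 keeps imprints in ESCs by binding the methylated motif TGCCGC. The allele of origin was not measured in these libraries, and each value sums both alleles.

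Promoter letters are shown for 3 genes that differ in the results: Mest, which rose strongly with RA, Mcts2, which differed between the ΔPG ES genotypes, and Meg3, which stood apart between the ΔPG and ΔG tables. RefSeq windows (build GRCm38.p6, 250 bases before to 50 after each start) were searched for TGCCGC on both strands, so that GCGGCA marks a match on the other strand. Of 31 members with a window, 12 held at least 1 match (38.7%), against 13.1% of all 27025 symbols. These 12 were Mcts2, Nnat, Mest, Copg2, Nap1l5, Zim1, Snrpn, Igf2, Plagl1, Grb10, Commd1 and Meg3. A match is a run of letters and not a measured binding site. The 250 bases before each start follow, all on the plus strand, with matches in capitals. Mest lies at chr6:30737800-30738049, Mcts2 at chr2:152686898-152687147 and Meg3 at chr12:109540746-109540995.
Mest: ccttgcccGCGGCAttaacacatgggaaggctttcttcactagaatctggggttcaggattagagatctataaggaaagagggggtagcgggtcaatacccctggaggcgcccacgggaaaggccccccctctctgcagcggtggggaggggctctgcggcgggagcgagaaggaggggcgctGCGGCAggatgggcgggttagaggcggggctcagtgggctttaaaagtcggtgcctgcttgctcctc
Mcts2: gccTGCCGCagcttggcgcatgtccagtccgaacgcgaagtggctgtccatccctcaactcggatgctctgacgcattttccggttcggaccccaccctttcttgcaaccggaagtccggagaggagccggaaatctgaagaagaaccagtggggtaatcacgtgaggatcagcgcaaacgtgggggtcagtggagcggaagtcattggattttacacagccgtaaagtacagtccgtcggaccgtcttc
Meg3: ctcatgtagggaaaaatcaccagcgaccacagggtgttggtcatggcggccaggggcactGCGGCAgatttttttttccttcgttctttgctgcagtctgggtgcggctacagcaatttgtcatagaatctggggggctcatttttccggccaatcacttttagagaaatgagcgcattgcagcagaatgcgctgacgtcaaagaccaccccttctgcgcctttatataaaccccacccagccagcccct

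The domain downstream of Meg3 also holds many miRNA genes. The mature sequences of 6 miRNAs from the stretch between Meg3 and Rian are given from RefSeq, with the seed (bases 2 to 8) in capitals. Their 6 seeds all differed.
miR-431-5p: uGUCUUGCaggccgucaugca
miR-433-3p: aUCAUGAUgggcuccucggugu
miR-127-3p: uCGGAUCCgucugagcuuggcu
miR-434-3p: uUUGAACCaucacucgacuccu
miR-432: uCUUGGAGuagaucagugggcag
miR-136-5p: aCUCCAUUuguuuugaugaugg

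Values are rlog values, a log2-scale expression level that shrinks noise at low counts, so 1 unit is a 2-fold step. Depth is unknown because the tables hold no counts. A gene was called when its adjusted p was below 0.1 (limma, Benjamini-Hochberg over all genes tested) and its rlog difference exceeded 0.5 in size. The deleted gene itself followed the labels. 5430416N02Rik lay between 3.80 and 5.64 in heterozygous and between 2.12 and 3.08 in homozygous samples, without overlap, and differed by -2.30 ± 0.12 (SE) in ΔPG ES cells and by -2.79 ± 0.093 in ΔG ES cells. One group stood apart: the difference between ΔPG ES homozygous and heterozygous samples followed exonic GC content across genes (r = -0.71), whereas r was 0.01 in ΔG ES, -0.00458 in ΔPG RA and 0.11 in ΔG RA cells. For results that rest on the ΔPG ES heterozygous group, values after removal of the GC trend are given where they change a call or the reading of a value.

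The question of the treatment was how differentiating cells respond. More imprinted genes rose than fell with RA in each of the 4 kinds of cells. In ΔPG heterozygous cells 20 of 35 were called higher and 2 lower, against 18% and 13.6% of all genes tested. ΔPG homozygous cells had 19 higher and 5 lower (all genes 16.5% and 11.3%), ΔG heterozygous cells 20 and 5 (17.7% and 11.7%), and ΔG homozygous cells 19 and 6 (17% and 12.1%). These shares include many rows of low level. With a minimum mean rlog of 3, the members called were 18, 22, 22 and 21, beside 5887, 5068, 5457 and 5569 of all genes. At that level in both tables stood 11766 genes, 29 of them members, so the share of all genes called was larger there. The median rlog difference over the 35 genes was 0.65, 0.58, 0.55 and 0.71 in that order, beside 0.01, 0.01, 0.04 and 0.02 over all genes. Of 16 maternal genes 8, 9, 9 and 7 were called higher, and of 19 paternal genes 12, 10, 11 and 12. Called in all 4 comparisons as higher were 17 genes, of which 7 are known for maternal and 10 for paternal expression. The share of all genes called higher in all 4 is not given here, and the shares above are those of single comparisons. Igf2r and Commd1 were called lower in all 4. Another 8 were called in none: Snrpn, Mkrn3, Peg12, Ube3a, Phlda2, Slc22a18, Ascl2 and Zrsr1.

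**Figure D1:**
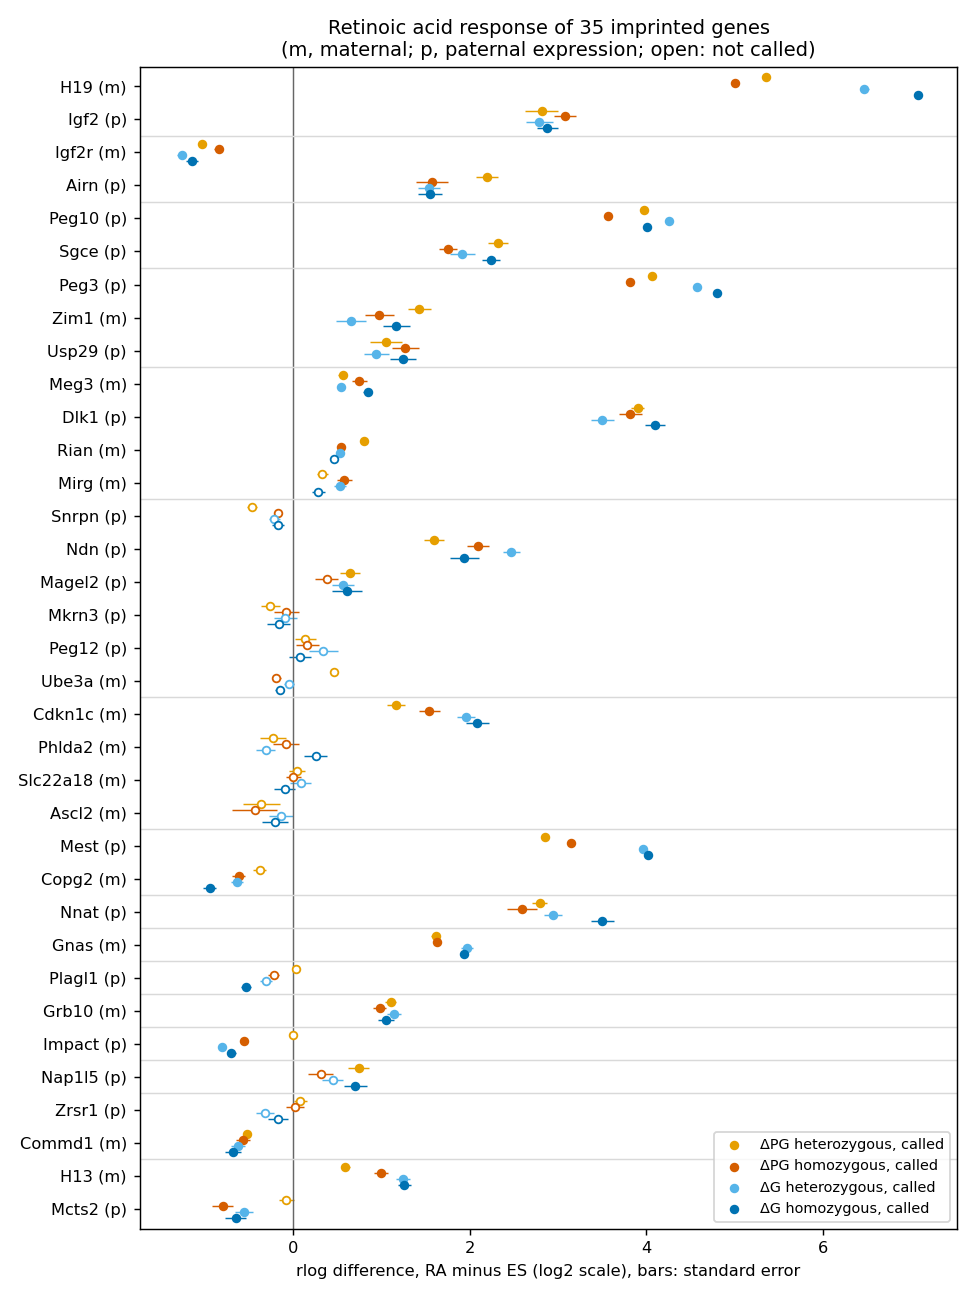
Rlog difference, RA minus ES (log2 scale), of 35 imprinted genes grouped by cluster, in the 4 kinds of cells; bars are standard errors, filled points were called and open points were not. H19 lies farthest to the right, between 5.00 and 7.08, and Igf2r is the leftmost gene in each kind of cell, between -1.26 and -0.84.

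Marker lists moved in the same comparisons. Of 7 pluripotency genes 7, 6, 7 and 7 were called lower, and their summed level (2 to the power of the rlog value) fell from between 9406 and 11690 in ES samples to between 987.4 and 1148 in RA samples. Extraembryonic endoderm genes were called higher for 8 of 9 in each comparison, with a summed level of 444.8 to 842.4 in ES and 2793 to 6683 in RA samples. The RA-response genes had 7 of 8 called higher in each, with Cdx1 lower. Fibroblast genes had 4, 4, 4 and 3 of 5 called higher, neural genes 2 of 5 in each and trophoblast genes 1 of 4 in each. Summed fibroblast levels were 919.3 to 1286 in ES and 1980 to 2444 in RA samples, and neural levels 313.4 to 628.6 and 631 to 903.8. Trophoblast sums were low, 32.43 to 47.7 in ES and 29.07 to 42.16 in RA samples. With RA they fell in ΔG heterozygous and ΔPG homozygous cells, rose in ΔG homozygous cells and overlapped in ΔPG heterozygous cells. Trophoblast genes Tpbpa and Prl3d1 were at 0 in every column. In bulk RNA, fewer cells of a type and less RNA per cell cannot be told apart, and the part of cell type in these differences was not tested.

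At the Igf2-H19 cluster both genes rose. H19, a maternal lncRNA that hosts a miRNA (chr7:149761434-149764048, minus strand, NCBIM37), read 8.90, 8.79 and 8.88 in ΔPG heterozygous ES samples and 14.21, 14.22 and 14.20 after RA. In ΔG homozygous cells it went from 7.93, 7.94 and 7.94 to 14.99, 15.02 and 15.03. No ES sample came near an RA sample in either line. The differences were 5.35 ± 0.028 and 5.00 ± 0.051 in ΔPG heterozygous and homozygous cells and 6.47 ± 0.046 and 7.08 ± 0.022 in ΔG cells (largest adjusted p = 1.52e-10, limma). Igf2, the paternal fetal growth factor, rose by 2.79 to 3.08, from between 3.16 and 3.94 in ES samples to between 6.07 and 6.72 in RA samples.

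At the Igf2r-Airn cluster on chromosome 17 the 2 genes moved in opposite directions. Igf2r, the maternal receptor that takes IGF2 to lysosomes, lay between 9.26 and 9.79 in all ES samples and between 8.12 and 8.61 in all RA samples. Its difference ran from -1.26 ± 0.055 in ΔG heterozygous to -0.84 ± 0.048 in ΔPG homozygous cells. Airn, whose transcription across Igf2r is known to silence the paternal Igf2r copy, lay between 2.28 and 2.75 in ES and between 3.91 and 4.62 in RA samples. It rose by 1.54 to 2.19. Both genes kept the groups apart in every comparison, and counting used the strand, so their antisense reads were kept separate.

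Mest and Copg2 overlap on opposite strands and also diverged. Mest, a paternal gene for a hydrolase-fold protein, lay between 8.33 and 8.80 in ES samples and between 11.62 and 12.50 in RA samples. The rise was 2.85 ± 0.023 and 3.15 ± 0.041 in ΔPG heterozygous and homozygous cells and 3.97 ± 0.042 and 4.01 ± 0.032 in ΔG cells. Copg2, a maternal COPI coat subunit gene, lay between 8.34 and 8.63 in ES and between 7.30 and 8.25 in RA samples. It was called lower in ΔPG homozygous (-0.61), ΔG heterozygous (-0.63) and ΔG homozygous cells (-0.94), and differed by -0.38 in ΔPG heterozygous cells, under the limit of 0.5. After removal of the GC trend that value was -0.55 and called, and Snrpn in the same cells was called at -0.58.

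At the H13-Mcts2 pair the maternal gene rose and the paternal one fell or was not called. H13, the maternal signal peptide peptidase gene, lay between 6.40 and 6.93 in ES and between 7.40 and 7.86 in RA samples and was called higher in all 4 comparisons, by 0.60 to 1.26. Mcts2, a paternal retrogene inside an H13 intron (chr2:152512884-152513676, plus strand, NCBIM37), fell by 0.79 in ΔPG homozygous, 0.55 in ΔG heterozygous and 0.65 in ΔG homozygous cells. In ΔPG heterozygous cells its difference was -0.07 ± 0.082 (adjusted p = 0.5, limma), with overlapping samples, and -0.18 after removal of the GC trend. The ΔG heterozygous call of Mcts2 was lost without the RA replicate 3 (-0.475). Mcts2 and Zrsr1 are retrocopies, and reads shared with their parent genes make their values uncertain.

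**Figure D2:**
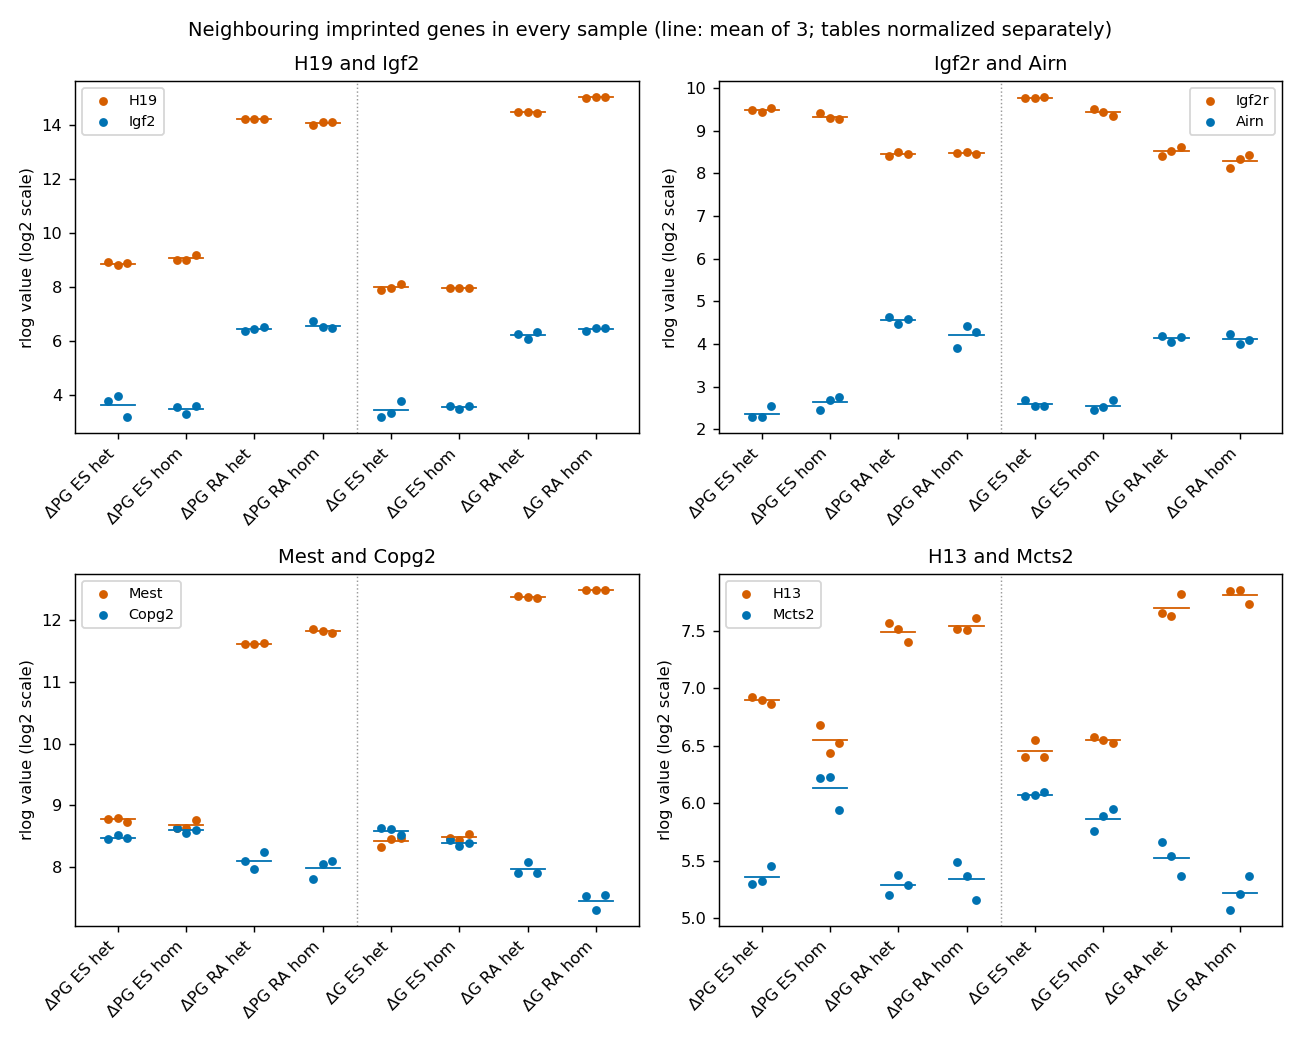
Rlog values (log2 scale) in every sample of 4 pairs of neighbouring imprinted genes; points are samples, lines are means of 3, and the dotted line separates the ΔPG and ΔG tables, which were normalized separately. H19 and Igf2 both rise with RA, while Igf2r and Copg2 are lower in every RA sample than in any ES sample of the same line and genotype, opposite to Airn and Mest.

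Most of the remaining paternal genes rose. Peg3, a zinc finger gene, lay between 8.89 and 9.56 in ES and between 13.32 and 13.77 in RA samples, a rise of 3.81 to 4.80. Peg10, a retrotransposon-derived gene needed in placenta, rose by 3.56 to 4.26, and its neighbour Sgce (epsilon-sarcoglycan) by 1.75 to 2.32. Dlk1, which encodes a Notch-ligand-like membrane protein, lay between 3.00 and 3.74 in ES and between 6.52 and 7.41 in RA samples and rose by 3.50 to 4.10. Nnat (neuronatin) rose by 2.60 to 3.50. Ndn, the necdin gene, rose by 1.60 to 2.47, whereas its cluster neighbours Snrpn, Mkrn3 and Peg12 were called in no comparison. Magel2, of the same cluster, was called higher in 3 of 4 (0.57 to 0.65). Usp29 rose by 0.95 to 1.28. Nap1l5 was called higher in the ΔPG heterozygous (0.75) and ΔG homozygous cells (0.71).

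Maternal genes that rose included growth restrainers. Cdkn1c, the p57 inhibitor of cyclin-dependent kinases, rose by 1.16 to 2.09, from between 3.84 and 4.79 in ES samples to between 5.74 and 6.46 in RA samples. Grb10, an adaptor that dampens insulin and IGF receptor signals, rose by 0.98 to 1.15. Gnas, the locus of the stimulatory G protein alpha subunit, rose by 1.62 to 1.97. Its symbol, like that of Grb10, sums several promoters with different imprinting. Zim1 rose by 0.66 to 1.43. Its ΔG heterozygous call was lost without RA replicate 2 of that group (0.45), as was that of Magel2 (0.49), and the ΔG homozygous call of Magel2 without RA replicate 1 (0.47). Other Kcnq1-cluster genes, Phlda2, Slc22a18 and Ascl2, were called in no comparison.

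Genes that fell were fewer. Commd1, a maternal gene for endosomal sorting, fell by 0.51 to 0.68, and 29.2% of its exonic bases are shared with B3gnt2 on the same strand. The calls of Commd1 in ΔPG cells were lost without ES heterozygous replicate 3 or ES homozygous replicate 2 (-0.48 in each case). Impact, a paternal gene for a GCN2 inhibitor, fell by 0.55, 0.80 and 0.70 in ΔPG homozygous, ΔG heterozygous and ΔG homozygous cells, beside 0.00 in ΔPG heterozygous cells. After removal of the GC trend the ΔPG values of Impact lay close to each other, at -0.36 in heterozygous and -0.45 in homozygous cells, neither past the limit of 0.5. Plagl1 was called lower only in ΔG homozygous cells (-0.53), and the other 3 values ran from -0.30 to 0.03.

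Meg3, Rian and Mirg follow Dlk1 on the plus strand of chromosome 12. Meg3 was called higher in all 4 comparisons, by 0.55 to 0.85. Rian, host of C/D box small nucleolar RNAs, was called in 3 (0.53 to 0.81), and Mirg, host of miRNAs, in 2 (0.54 and 0.58). After removal of the GC trend Rian in ΔPG heterozygous cells was at 0.39, and Meg3 and Mirg in ΔG heterozygous cells at 0.50 and 0.49, all no longer called. Rian in ΔG homozygous cells went the other way, from 0.46 to 0.64 and called.

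The same 3 noncoding genes set the ΔPG and ΔG libraries apart. The tables were normalized separately, so this comparison is a description without a test, and it was singled out after its values were seen. The Meg3 gene spans chr12:110779211-110809936 (plus strand, NCBIM37). Its values lay between 7.47 and 8.47 in the 12 ΔPG samples and between 8.86 and 9.84 in the 12 ΔG samples. Rian lay between 9.79 and 10.78 in ΔPG and between 11.48 and 12.11 in ΔG samples. Neither gene overlapped between the lines at any treatment or genotype. The ΔG group means of Meg3 exceeded the matched ΔPG means by 1.21 and 1.27 in heterozygous and homozygous ES cells and by 1.19 and 1.37 after RA. For Rian the gaps were 1.67, 1.28, 1.40 and 1.20, and for Mirg 0.97, 1.47, 1.17 and 1.17. The gap in heterozygous ES cells followed exonic GC across genes (r = -0.67). With that trend removed, the heterozygous ES gap was 1.27 for Meg3, 1.03 for Rian and 1.04 for Mirg.

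Genes averaging 3 or more on the rlog scale in both tables numbered 11766, and 5 of them were apart by over 1 in one direction in all 4 matched groups. The 4 that were higher in ΔG cells were Meg3, Rian, Mir432 and SNORD113. Mir432 lies between Meg3 and Rian, and SNORD113 is a symbol shared by 22 small nucleolar RNA genes, 19 of them inside the Meg3 to Mirg stretch. The 1 that was lower was Mtap1a. With the GC trend removed, Mirg joined these 5. The median gap over all genes compared was between -0.02 and 0.02.

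The gap ran along the plus strand of the domain. Of 55 plus-strand rows from Meg3 to Mirg, 52 were higher in ΔG in all 4 matched groups, and 45 by over 0.5. Only 4 of the 55 reached a mean of 3 in both tables, and these 4 were all higher by over 0.5 in all groups, beside 0.264% of all genes at that level. Of the 51 rows under that level 41 were, beside 13.7% of 8879 such rows over the genome, while 11.3% of those were lower by as much. Low rows thus often shift between the separately normalized tables.

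Most of the low rows are miRNA precursors, among them 5 of the 6 shown above. Mir127 stood higher in ΔG by 1.63 to 1.99, Mir434 by 1.44 to 1.62, Mir431 by 1.46 to 1.73, Mir433 by 1.05 to 1.47 and Mir136 by 1.07 to 1.39. Rtl1, a paternal gene antisense to the miRNA rows and also low, stood the other way, by -2.78 to -2.47. Its ΔG values (-2.26 to -2.02) were near the minimum of that table (-2.26), beside 0.23 to 0.95 in ΔPG samples. The miRNA rows share transcripts and libraries with the host genes and are not separate evidence. Dlk1, upstream on the same strand, had gaps of -0.22 to 0.06 in 3 groups and of -0.60 in RA heterozygous cells. Of 16 genes in the flanks of 1 Mb with a mean of at least 3, 0 were higher in ΔG in all 4 groups, and of 9 lower rows there 2 were, Gm3452 (1.60 to 1.98) and 1700001K19Rik (0.20 to 0.53). Some rows were lower in ΔG in all 4 groups. Among them were the flanking genes Ankrd9 (-0.70 to -0.15) and Wdr25 (-0.58 to -0.16). Of low rows, Mir345 in the flank (-1.005 to -0.89) and Dio3os near Dio3 (-0.99 to -0.81) were also lower.

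**Figure D3:**
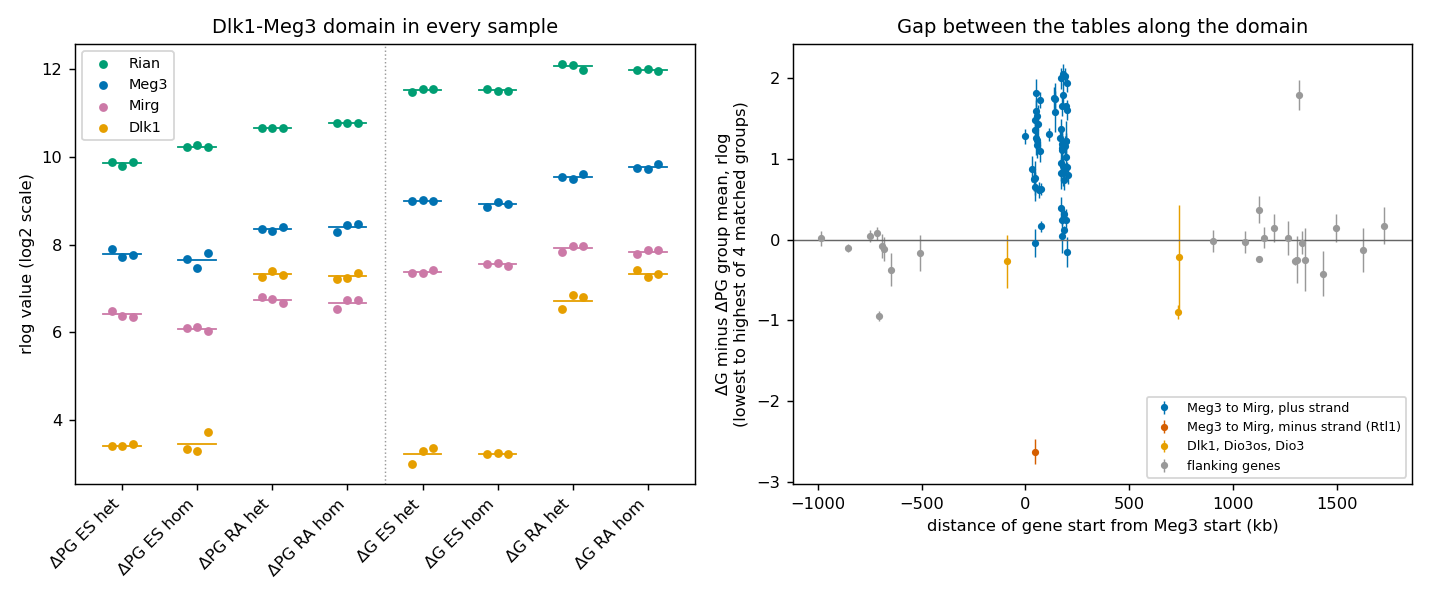
Left, rlog values (log2 scale) of Rian, Meg3, Mirg and Dlk1 in every sample, with lines for means of 3 and a dotted line between the separately normalized tables. Right, ΔG minus ΔPG group means by distance of the gene start from Meg3 in kb, each bar running from the lowest to the highest of 4 matched groups; the plus-strand rows from Meg3 to Mirg lie mostly above 0, and the flanking genes lie around it apart from some low rows.

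Grb10 also differed between the tables, by 1.39 and 0.67 in heterozygous and homozygous ES cells and by 1.43 and 0.75 after RA, again higher in ΔG. H19 changed sides: ΔG was lower by 0.87 and 1.12 in ES cells (gaps -0.87 and -1.12) and higher by 0.24 and 0.96 after RA. With the GC trend removed, the heterozygous ES gap of H19 was -0.50. Over the 29 members at a mean of at least 3, Meg3 and Rian were the 2 past 1 in all 4 groups.

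The second question was whether loss of the remaining 5430416N02Rik allele changed imprinted genes. In ΔPG ES cells 4 of 35 were called higher in homozygous samples and 1 lower, against 6.87% and 6.29% of all genes. With both directions together, these 5 of 35 were near the 13.2% of all genes called. With a minimum mean rlog of 3, the calls were 5 members and 2784 genes. At that level in both tables stood 11766 genes, 29 of them members. Summed marker levels also differed: neural genes lay between 622.6 and 628.6 in heterozygous and between 382.8 and 407.5 in homozygous samples, extraembryonic endoderm genes between 807 and 842.4 and between 596.4 and 623.3, and pluripotency genes between 10930 and 11230 and between 9406 and 9512. Of these lists 2 of 5, 1 of 9 and 1 of 7 genes were called lower, and their part in the imprinted genes' values was not tested. The marker sums and calls rest on the heterozygous group of the GC trend, and that trend was not removed from them. Mcts2 read 5.30, 5.32 and 5.46 in heterozygous and 6.22, 6.22 and 5.94 in homozygous samples, a difference of 0.77 ± 0.099 (adjusted p = 0.000597, limma). Ube3a, an E3 ubiquitin ligase imprinted in neurons, was higher by 0.64, Sgce by 0.60 and Grb10 by 0.52, and Ndn was lower (-0.57). With the GC trend removed, Mcts2 stayed called at 0.64, whereas Ube3a went to 0.03, Sgce to 0.24, Ndn to -0.27 and Grb10 to 0.48, and H19 became called at 0.54 instead of 0.20. The Grb10 call was lost without heterozygous replicate 1 (0.49) or 2 (0.49) or homozygous replicate 3 (0.48). That of Ndn was lost without heterozygous replicate 3 (-0.44), homozygous replicate 2 (-0.45) or homozygous replicate 3 (-0.56, adjusted p = 0.128, limma).

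**Figure D4:**
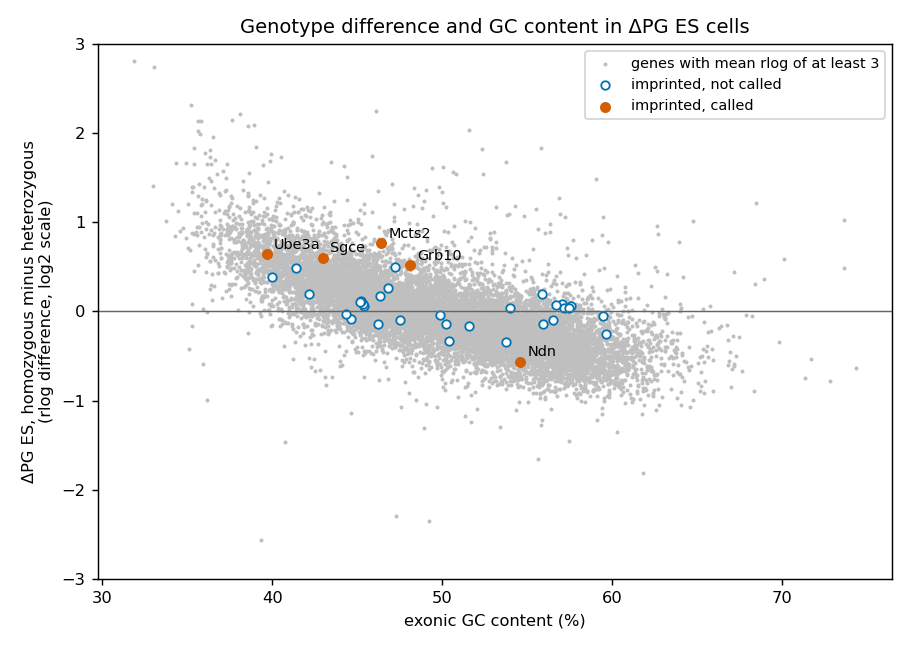
Rlog difference, homozygous minus heterozygous, in ΔPG ES cells (log2 scale) against exonic GC content in percent; grey points are genes with a mean rlog of at least 3, open circles imprinted genes not called, and filled circles the 5 that were called. Ube3a, Sgce and Ndn lie within the sloping band of all genes, and Mcts2 at 0.77 lies at its upper edge.

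The other 3 genotype comparisons held few calls. In ΔG ES cells 0 of 35 were called by limma, against 0.354% of all genes higher and 0.63% lower. Of the 35, 9 had an unadjusted p below 0.05, and 3 had an adjusted p below 0.1 without the limit on the difference. At that adjusted p alone stood 1152 of all 22048 genes, and all genes at the unadjusted p are not counted here. Peg10 became called when heterozygous replicate 3 was left out (0.51). In ΔPG RA cells 0 were called, against 0.241% and 0.605%, with 10 at an unadjusted p below 0.05 and 6 past the adjusted one without that limit (limma). Past the adjusted one alone were 1006 of all 21979 genes. In ΔG RA cells H19 and Dlk1 were higher and Copg2 lower, against 0.676% and 1.46%. H19 read 14.46, 14.47 and 14.44 in heterozygous and 14.99, 15.02 and 15.03 in homozygous samples, a difference of 0.56 ± 0.012 (adjusted p = 6.01e-18, limma). Dlk1 read 6.52, 6.84 and 6.80 against 7.41, 7.26 and 7.34, a difference of 0.61 ± 0.093. For Copg2 the difference was -0.51 ± 0.081, and it lost its call without heterozygous replicate 2 (-0.44) or homozygous replicate 2 (-0.43), or with the GC trend removed (-0.49). Under quantile normalization the H19 difference was 0, since H19 ranked 7 in every RA sample. H19 and Dlk1 kept the groups apart, and in ΔPG RA cells the same genes differed by -0.16 and -0.05.

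Of the distinct genes within 1 Mb of an imprinted gene, 33 of 399 were called between genotypes in ΔPG ES cells (8.27%, all genes 13.2%) and 4 of 377 in ΔG ES cells (1.06%, all genes 0.984%). After RA, 0 of 399 were called in ΔPG cells by limma (43 at an unadjusted p below 0.05, all genes called 0.846%) and 4 of 377 in ΔG cells (1.06%, all genes 2.14%). All genes at that unadjusted p are not counted here. Beside the ΔG RA calls, 3 of 9 extraembryonic endoderm genes were lower in homozygous cells, and the summed level was 3822 to 3830 against 6347 to 6683 in heterozygous cells. In ΔPG RA cells, where no imprinted gene was called, 5 of 9 were lower, with 2793 to 2850 against 5169 to 5278. The part of these markers in the H19 and Dlk1 values was not tested.

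Peg10 lay under the limit but leaned one way throughout. In ES cells it was higher in homozygous samples by 0.50 ± 0.051 in ΔPG and 0.44 ± 0.060 in ΔG (adjusted p = 0.000177 and 0.0127, limma), and after RA by 0.08 and 0.18. Its ΔPG ES samples lay between 8.89 and 9.06 in heterozygous and between 9.44 and 9.55 in homozygous cells, and those of ΔG between 8.99 and 9.20 and between 9.46 and 9.53. The groups did not overlap in either line, and the ΔPG ES difference was 0.41 with the GC trend removed. Grb10 differed in sign between the lines: 0.52 and 0.39 in ΔPG ES and RA cells, and -0.20 and -0.29 in ΔG.

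**Figure D5:**
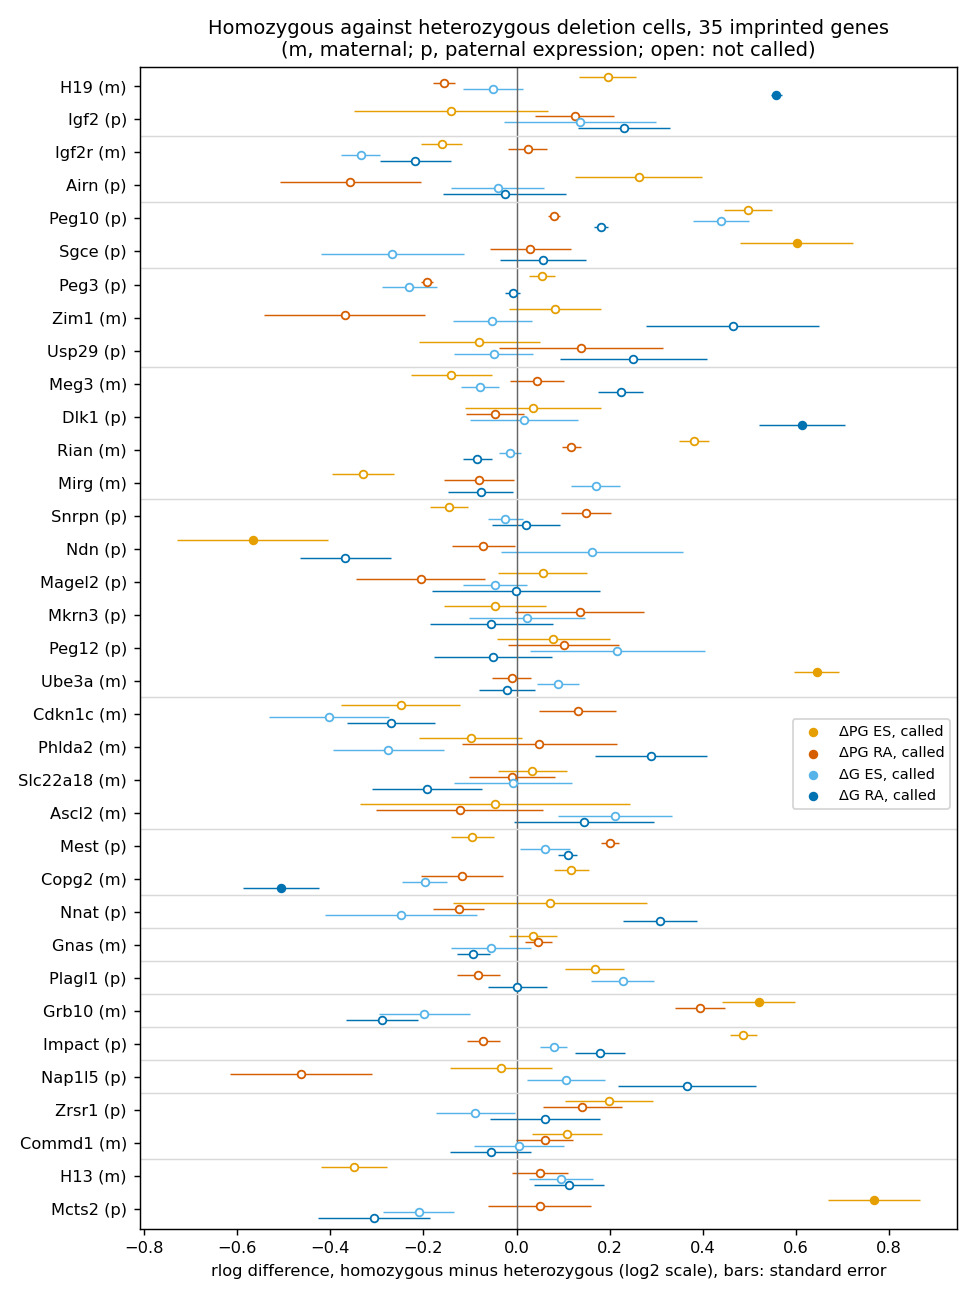
Rlog difference, homozygous minus heterozygous (log2 scale), of 35 imprinted genes in ΔPG and ΔG cells, ES and RA; bars are standard errors, filled points were called and open points were not. Filled points are few: 5 in ΔPG ES, 3 in ΔG RA and 0 in the other comparisons.

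Whether the RA response itself differed by genotype was asked with an interaction term fitted to all 12 samples per line. In ΔPG cells 0 members were called higher and 5 lower (all genes 6.72% and 7.19%), and in ΔG cells 4 higher and 0 lower (1.19% and 1.18%). The ΔPG genes were Mcts2, Ube3a, Airn, Sgce and Impact, and the ΔG genes H19, Dlk1, Phlda2 and Nnat. The ΔPG values share the ES heterozygous samples of the GC trend, and with that trend removed Ube3a, Sgce and Impact were at -0.06, -0.21 and -0.09.

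Genes that keep or erase imprints were read from a list of 21. With RA, Zfp57 fell in all 4 comparisons, by 1.27, 1.40, 1.80 and 1.92 in ΔPG heterozygous, ΔPG homozygous, ΔG heterozygous and ΔG homozygous cells. Also lower in each were Tet1 and Tet2, which oxidise methylcytosine, with Uhrf1, Dnmt3l, Setdb1 and Eed. Dnmt3a, a de novo DNA methyltransferase, and Tet3 were called higher in each, Dnmt3a by 0.56 to 1.36 and Tet3 by 1.68 to 1.79. In all, 10, 8, 8 and 9 of the 21 were called lower, beside 13.6%, 11.3%, 11.7% and 12.1% of all genes. Called higher were 3, 2, 3 and 2, beside 18%, 16.5%, 17.7% and 17%. Between genotypes, 1 was called higher and 1 lower in ΔPG ES cells, beside 6.87% and 6.29%. The calls higher with RA and those between genotypes were thus no more frequent than over all genes.

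A further list held 35 imprinted genes outside the 37. Of 29 with values in the ΔPG table, 9 and 8 were called higher with RA in heterozygous and homozygous cells, and of 30 with ΔG values, 6 and 8, with 1 lower in each, beside 18%, 16.5%, 17.7% and 17% of all genes called higher. The 6 of 30 in ΔG heterozygous cells are near that background. Asb4 and Ppp1r9a, neighbours of Peg10, were among the higher ones in each, by 0.54 to 0.91 and 0.84 to 1.35. The median difference over this list was 0.27, 0.16, 0.05 and 0.08.

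Contact with the 5430416N02Rik promoter was read from 4C-seq, which lists regions that meet a bait near its start, in 2 ESC replicates of 339 and 341 regions. By RefSeq GRCm38 positions, 10 of 37 imprinted genes (27.0%) lay in regions of both replicates, against 33.9% of all 49943 genes. They were H13, Mcts2, Nnat, H19, Igf2, Ascl2, Kcnq1ot1, Cdkn1c, Slc22a18 and Phlda2, and 3 regions of replicate 1 held all of them. Dlk1, Meg3, Rian and Mirg lay in a region of replicate 2 alone. The regions carry no score, and some end past the chromosome ends of the build named for the series, so the build behind them is uncertain.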

How the data were processed

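Per the labels' tool list and the study's methods, the authors mapped stranded total RNA-seq reads to mm9 with TopHat2 2.1.0 and GENCODE vM1, removed duplicates with Picard, counted exonic reads by gene name with HTSeq 0.6.0 and deposited rlog values (log2 scale, DESeq2 1.14.1), 1 table per deletion line. The 4C regions were deposited as positions (BWA 0.7.15). Groups came from the sample titles. Symbols at 1 value in every column (11945 and 11876) were left out. The rest (21979 and 22048) were fitted with limma (3.58.1, R 4.3.3, trend on), within 1 table, for 10 comparisons of 3 against 3 samples or the interaction over 12. The script was tested on simulated data. Members were named by the list, with every call named. Members and lists were chosen with earlier results of these data known. Same-numbered samples did not deviate together (highest correlation 0.0855), so replicate numbers were not used as pairs. Depth could not be judged from rlog values. Between replicates of a group the variance was 0.27 to 0.96 times the counting noise estimated from rlog values. The small standard errors and p-values rest on that narrow spread, and its source was not tested. Exonic GC came from NCBIM37, and the GC trend was removed only from rows with a mean rlog of at least 3. Alternatives were other call limits, a minimum mean rlog of 3, quantile normalization, GC-trend removal (lowess span 0.3), no variance trend, a replicate block, 1 spread over 12 samples and leaving out each sample. After the data were seen, averaging ΔPG RA homozygous replicates 2 and 3, which lay closer to each other than to replicate 1, NCBIM37 positions for 4C and removal of the GC trend from the gaps between tables were added.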

Additional observations from a re-analysis of the deposited data

Results flagged for a closer look

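The RA response of 9 imprinted genes differed between homozygous and heterozygous cells by the interaction test (limma, 12 samples of a table). Of all genes, 6.72% were called higher and 7.19% lower in ΔPG cells, and 1.19% and 1.18% in ΔG cells. With both directions together, the 5 of 35 members called in ΔPG cells were near the share of all genes. In ΔPG cells the homozygous minus the heterozygous difference was negative for Airn (interaction -0.62 ± 0.22, adjusted p = 0.0532), Sgce (-0.57), Ube3a (-0.65), Impact (-0.56) and Mcts2 (-0.72). Airn and Sgce rose less in homozygous cells, Mcts2 and Impact were called lower after RA in homozygous and not in heterozygous cells, and Ube3a was called in neither genotype (0.47 and -0.19). Impact differed by 0.00 with RA in heterozygous cells and by -0.55 in homozygous cells (-0.36 and -0.45 with the GC trend removed), and its ES samples read 9.66, 9.67 and 9.73 against 10.16, 10.15 and 10.21. With the GC trend removed, Mcts2 was at -0.58 and Airn at -0.51, both called, and H19 (-0.69) and Nnat (-0.57) were called as well. Ube3a, Sgce and Impact then went to -0.06, -0.21 and -0.09 and were no longer called. Airn lost its call in 6 of the fits that leave out 1 sample, with adjusted p between 0.1001 and 0.1106.

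In ΔG cells the interaction was positive for H19 (interaction 0.61 ± 0.050), Dlk1 (0.60), Phlda2 (0.56) and Nnat (0.56). H19, Dlk1 and Nnat rose more in homozygous cells, whereas Phlda2 differed by -0.30 in heterozygous and 0.26 in homozygous cells, called in neither. Nnat and Phlda2 were the least stable, with adjusted p of 0.0755 and 0.0697: of the 12 fits that leave out 1 sample, Nnat lost its call in 10 (adjusted p up to 0.2089) and Phlda2 in 7 (up to 0.2156). Nnat also lost it without the variance trend (0.1605). Dlk1 lost its call without ES heterozygous replicate 2 or 3, RA heterozygous replicate 1 or RA homozygous replicate 1 (0.50 to 0.56, adjusted p 0.1035 to 0.1654). Under quantile normalization H19 was at 0.06. In ΔPG cells the interaction of H19 was -0.35, opposite in sign; the difference between the 2 lines was not tested, since the tables were normalized separately.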

How the results depend on the processing

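Of 113 calls of single genes, 82 held in every alternative run for them, 79 of the 96 RA calls among them, 2 of 8 between genotypes and 1 of 9 interactions, and 0 changed direction. With an adjusted p below 0.05 and a fold above 1.5, the calls were 3 instead of 5 in ΔPG ES, 1 instead of 3 in ΔG RA, and 2 instead of 5 and 2 instead of 4 for the ΔPG and ΔG interactions. All genes called there were 1956, 275, 2104 and 268. With no limit on the difference the calls of members were 15 in ΔPG ES, 3 in ΔG ES, 6 in ΔPG RA, 12 in ΔG RA, and 17 and 8 for the interactions. All genes called there were 7926, 1152, 1006, 2433, 6387 and 1164, of 21979 tested in ΔPG and 22048 in ΔG cells. Removal of the GC trend left 2 members in ΔPG ES. It used only rows with a mean rlog of at least 3, which left out Zim1, Usp29, Magel2, Slc22a18, Ascl2 and Nap1l5. All genes called in ΔPG ES were then 865, beside 2784 at that level without the removal and 2893 over all rows. Quantile normalization left 2 for the ΔG interaction; it set H19 to a difference of 0 in ΔG RA by construction, since H19 ranked 7 in every RA sample. Leaving out 1 sample gave 0 to 1 calls in ΔG ES, 4 to 6 in ΔPG ES, 2 to 4 in ΔG RA, 4 to 7 for the ΔPG and 1 to 4 for the ΔG interaction, the last at 1 without RA homozygous replicate 1 and at 2 without any 1 of ES heterozygous replicates 1, 2 and 3, ES homozygous replicate 2 and RA heterozygous replicates 1 and 3. RA counts stayed between 21 and 26. A replicate block, with numbers that did not pair samples, left every count of members as it was (5, 0, 0, 3, 22, 24, 25, 25, 5 and 4), though calls over all genes went from 217 to 44 in ΔG ES and from 186 to 112 in ΔPG RA. Averaging ΔPG RA homozygous replicates 2 and 3 gave 0, 24 and 6 calls. The 4C count was 16 with replicate 2 alone and 7 with gene positions of NCBIM37. Unknown depth, 3 samples a group and clones that the sources used here do not assign to libraries limit all comparisons.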
